A study of Mus musculus with 6 samples.

Results

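The 10 genes described here encode enzymes that make, break down or phosphorylate ceramide and its products: Sptlc1, Sptlc2, Degs1, Ugcg, Smpd1, Asah1, Asah2, Sphk1, Sphk2 and Sgpl1. They were chosen by name, by matching the symbol column of the deposited table, with no cut on measured values, though earlier results of these data were known. They were 10 of the 17024 genes tested and 14 of the 23556 probes. The tissue was eWAT, the white fat pad attached to the epididymis, taken at 10 weeks of age from 3 db/db mice and 3 db/+ mice. Mice of the db/db genotype lack the long, signalling form of the leptin receptor and, per the labels, were obese with severe hyperglycaemia and a modest rise in insulin. The db/+ mice carry 1 copy of the mutation and were the lean controls. The Cy5 channel of an array held a single mouse and the Cy3 channel pooled lean eWAT, with no dye swap, so any dye bias is shared by both groups. All mice received vehicle, per the file headers. RNA was amplified in 2 rounds before labelling. The labels call the samples biological replicates.

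Ceramide is built in the endoplasmic reticulum from serine and palmitoyl-CoA, and serine palmitoyltransferase carries out the first and rate-limiting step. Ceramide can be glucosylated, turned into sphingomyelin and released from it again, or cut by ceramidases to sphingosine, which sphingosine kinases convert to sphingosine 1-phosphate (S1P). In fat and other tissues of obese animals, ceramide is widely studied because it can blunt insulin signalling, whereas S1P acts on cell-surface receptors.

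The arrays gave between 23355 and 23506 measured probes each, and all 10 genes had a value on all 6 arrays. No filter on low values was applied. Intensities are on an arbitrary scale set by the authors, and 97.3% of them were multiples of 0.01, so the ratio of a dim probe moves in coarse steps. The db/db arrays differed among themselves in markers of epididymis epithelium. The Cy5 intensities of the 14 measured epididymis markers summed to 1.63 in db/db mouse 51, 159 in mouse 52 and 151 in mouse 53, against 11.9, 7.30 and 1.59 in db/+ replicates 1, 2 and 3. Cst8 had no value in db/db mouse 51 and db/+ replicate 3 and is missing from their sums. Mice 52 and 53 thus stood apart from the other 4, and values that leave out these arrays or adjust for the signal are given beside the genes that passed the test. Where a single db/db array was set against the 3 db/+ arrays, the spread came from the db/+ arrays alone, and the db/db array was assumed to vary as they do. Markers of adipocytes were present on all arrays, with a summed Cy5 intensity of 45.4 to 51.6 in the db/db mice and 116 to 136 in the db/+ mice. These sums do not cover the same genes, because Cidec had no value in db/db mouse 51 and db/+ replicate 2. It added 22.4 and 19.1 in db/db mice 52 and 53, and 29.7 and 28.7 in db/+ replicates 1 and 3. Across all genes 497 were higher and 641 lower in db/db eWAT at an adjusted p under 0.05 (limma on log2 ratios, adjusted by Benjamini-Hochberg over all genes tested).

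Within the 10 enzymes, acid ceramidase (Asah1) rose and the serine palmitoyltransferase subunit Sptlc1 fell in db/db eWAT, and the other 8 did not pass the test. In each direction 1 gene of 10 passed, against a background of 2.92% of all genes higher and 3.77% lower, or 6.68% in either direction. The median log2 fold change of the 10 was 0.10, against 0.00 over all genes tested, and the median size of the change without its sign was 0.32, against 0.19. There were 6 positive and 4 negative values. In 6 of the 10 genes the 3 db/db ratios lay wholly outside the range of the 3 db/+ ratios, 3 above it and 3 below it, and 26.1% of all genes measured on 6 arrays had ratios separated in this way.

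**Figure D1:**
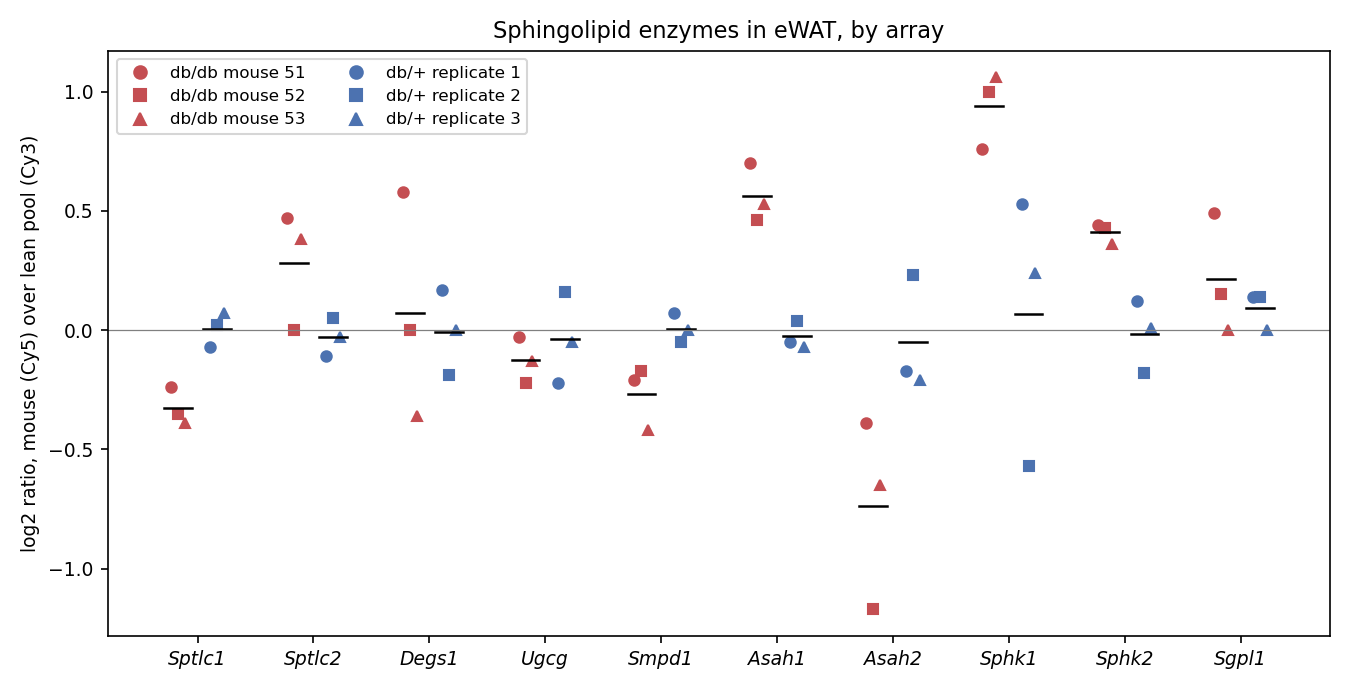
Log2 ratio of the mouse (Cy5) over the lean pool (Cy3) for each of the 10 enzymes, with the 3 db/db arrays left of the 3 db/+ arrays, 1 point per array and a bar at each group mean. The ratios of Asah1, Sphk1 and Sphk2 are higher on all 3 db/db arrays than on any db/+ array, and those of Sptlc1, Smpd1 and Asah2 are lower.

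Serine palmitoyltransferase is assembled from the subunits SPTLC1 and SPTLC2, and the log2 fold changes of the pair had opposite signs. For Sptlc1 the log2 ratios were -0.24, -0.35 and -0.39 in db/db mice 51, 52 and 53, against -0.07, 0.02 and 0.07 in db/+ replicates 1, 2 and 3. All 3 db/db values lay below the db/+ values. Its Cy5 intensity averaged 3.51 ± 0.16 in db/db and 4.28 ± 0.07 in db/+ (SD, n = 3 each). Sptlc1 fell by 0.33 ± 0.06 on the log2 scale (SE, limma adjusted p = 0.0475), close to the threshold. When every probe was tested instead of 1 probe per gene, the same probe had an adjusted p of 0.0516. With the median of the epididymis markers as a covariate the value was -0.27 (adjusted p = 0.0566), and db/db replicate 1 alone, the array without the epididymis signal (marker median -1.36), gave -0.25 against the 3 db/+ arrays (adjusted p = 0.209). In eWAT, a mixed tissue, fewer cells that carry a transcript and less of the transcript per cell cannot be told apart, for Sptlc1 and for every gene below.

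For Sptlc2, which carries the pyridoxal phosphate of the active site, the db/db mice had log2 ratios of 0.47, 0.00 and 0.38, and the db/+ mice -0.11, 0.05 and -0.03. Mice 51 and 53 lay above every db/+ mouse, and mouse 52 lay inside the db/+ range. The log2 fold change was 0.31 ± 0.14 and did not pass (SE, limma adjusted p = 0.275). Degs1, the desaturase that turns dihydroceramide into ceramide, was dim, with a Cy5 intensity of 0.09 ± 0.026 in db/db and 0.0833 ± 0.012 in db/+ (SD, n = 3 each). Across the db/db mice its log2 ratios were 0.58, 0.00 and -0.36, against 0.17, -0.19 and 0.00 across the db/+ mice; the db/db mice lay on both sides of the db/+ mice. The log2 fold change of 0.08 could lie anywhere between -0.26 and 0.43 within the rounding of its intensities to steps of 0.01 (limma adjusted p = 0.907).

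Set side by side on the same array, the log2 ratio of Sptlc2 to the pool ran above that of Sptlc1 in every db/db mouse. The difference of their log2 ratios was 0.72, 0.35 and 0.77 in db/db mice 51, 52 and 53, against -0.04, 0.03 and -0.10 in the db/+ mice, without overlap. The group means differed by 0.65 (exact two-sided permutation test, p = 0.1, n = 3 each; adjusted over the 3 pairs of partner enzymes, p = 0.15). With 3 mice against 3 such a test cannot give a p below 0.1, and the pairs were set against each other with their values known.

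**Figure D2:**
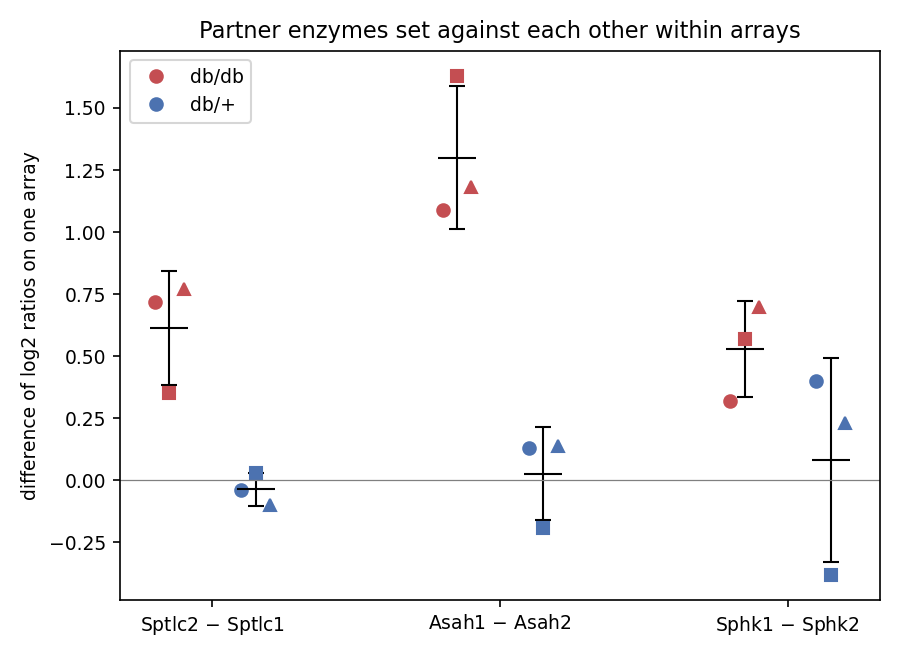
Difference between the log2 ratios of partner enzymes on the same array, with db/db left of db/+, 1 point per array, and bars for the mean and SD of each group (n = 3). For Sptlc2 minus Sptlc1 the db/db values lie between 0.35 and 0.77 and the db/+ values between -0.10 and 0.03.

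Ugcg makes glucosylceramide, the entry to the glycosphingolipids, and its probes showed no difference past the threshold. The brightest of its 3 probes had a log2 fold change of -0.09 ± 0.12 (SE, limma adjusted p = 0.657), with a 95% interval of -0.39 to 0.21. The log2 ratios of that probe were -0.03, -0.22 and -0.13 in the db/db mice and -0.22, 0.16 and -0.05 in the db/+ mice, which overlap. The other probes gave 0.02 and -0.19, the second at an intensity of 0.0233 in both groups, a few rounding steps.

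Smpd1, the acid sphingomyelinase of lysosomes, had a log2 ratio of -0.21, -0.17 and -0.42 in db/db mice 51, 52 and 53, against 0.07, -0.05 and 0.00 in db/+ replicates 1, 2 and 3. The db/db values all lay below the db/+ values. The log2 fold change was -0.28 ± 0.08, which did not pass over all genes (SE, limma adjusted p = 0.128).

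The ceramidases cleave ceramide to sphingosine and a fatty acid, and the values of their 2 genes here had opposite signs. Asah1, the acid ceramidase of lysosomes, lies at chr8:41340646-41397644 in GRCm38.p6 (RefSeq). Log2 ratios were 0.70, 0.46 and 0.53 for db/db mice 51, 52 and 53, against -0.05, 0.04 and -0.07 in db/+ replicates 1, 2 and 3. The lowest db/db mouse lay above the highest db/+ mouse. The Cy5 intensity was 4.81, 3.62 and 4.13 in the db/db mice and 2.88, 3.13 and 2.74 in the db/+ mice. Asah1 rose by 0.59 ± 0.08 on the log2 scale, or 1.5-fold (SE, limma adjusted p = 0.0259), and it was the only one of the 14 probes to pass when every probe was tested (adjusted p = 0.0288; 5.44% of all probes passed). The value was 0.66 with the epididymis covariate (adjusted p = 0.0307) and 0.72 for db/db replicate 1 as the single db/db array (adjusted p = 0.036, which leaves out any spread between db/db mice). It did not pass when db/+ replicate 1, 2 or 3 or db/db replicate 2 or 3 was left out, with values between 0.56 and 0.64 (adjusted p between 0.057 and 0.127).

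Asah2, the neutral ceramidase, had log2 ratios of -0.39, -1.17 and -0.65 in the db/db mice and -0.17, 0.23 and -0.21 in the db/+ mice. All 3 db/db mice lay below the db/+ mice, mouse 52 by the widest margin. The log2 fold change was -0.69 ± 0.25 and did not pass (SE, limma adjusted p = 0.187), and it was -0.50 with the epididymis covariate (adjusted p = 0.372). Within an array the log2 ratio of Asah1 exceeded that of Asah2 by 1.09, 1.63 and 1.18 in the db/db mice and by 0.13, -0.19 and 0.14 in the db/+ mice. The groups did not overlap and their means differed by 1.27 (exact two-sided permutation test, p = 0.1, the smallest the design allows, n = 3 each; p = 0.15 adjusted over the 3 pairs).

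Sphingosine kinases phosphorylate sphingosine to S1P. Sphk1 had the widest spread among the lean mice, with log2 ratios of 0.76, 1.00 and 1.06 in db/db mice 51, 52 and 53, against 0.53, -0.57 and 0.24 in db/+ replicates 1, 2 and 3. All 3 db/db values lay above the db/+ values, of which replicate 1 came closest. The log2 fold change of 0.87 ± 0.31 did not pass (SE, limma adjusted p = 0.183). A second Sphk1 probe gave 0.55, but its intensity was at most 0.02 on every array, and rounding alone allows -0.65 to 1.96.

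Sphk2 was even across the obese mice, with log2 ratios of 0.44, 0.43 and 0.36 in the db/db mice and 0.12, -0.18 and 0.01 in the db/+ mice. The groups did not overlap. The log2 fold change was 0.43 ± 0.09 and missed the threshold (SE, limma adjusted p = 0.0606), and it passed when the dimmest 25% of genes were left out of the test (adjusted p = 0.0474). Within an array the log2 ratio of Sphk1 minus that of Sphk2 was 0.32, 0.57 and 0.70 in the db/db mice. In the db/+ mice it was 0.40, -0.38 and 0.23, and the groups overlap (exact two-sided permutation test, p = 0.2, n = 3 each).

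Sgpl1 encodes the lyase that breaks S1P down irreversibly, and its 2 probes gave positive values of different size, neither past the threshold. The brighter probe had a log2 fold change of 0.12 ± 0.14 (SE, limma adjusted p = 0.624), and its log2 ratios of 0.49, 0.15 and 0.00 in the db/db mice overlapped those of 0.14, 0.14 and 0.00 in the db/+ mice. The dimmer probe had log2 ratios of 0.22, 0.49 and 1.38 in the db/db mice and 0.00, -0.15 and 0.00 in the db/+ mice, without overlap, and a log2 fold change of 0.75 ± 0.32 that did not pass (SE, limma adjusted p = 0.29). Mouse 53 carried most of that difference. Both probes were dim, and rounding alone allows -0.16 to 0.41 for the brighter and 0.32 to 1.18 for the dimmer, ranges that overlap.

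For 8 of the 14 probes the accession in the table is a RefSeq transcript, and in all 8 it names the same gene. For the other 6 the gene rests on the symbol column, among them the single probes of Asah1, Degs1 and Sphk2.

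Promoter sequence is shown for both subunit genes of serine palmitoyltransferase, whose log2 fold changes had opposite signs, and for Smpd1 and Asah2, which with Sptlc1 were the enzymes lower on every db/db array. Each line is the 250 bases before an annotated RefSeq transcript start in GRCm38.p6, on the strand of the gene. Capitals mark matches on either strand to the GC box (GGGCGG), the CCAAT box (CCAAT), the E-box (CACGTG) or the lysosomal gene motif CLEAR (core TCACGTGA, which contains the E-box). The windows are chr13:53377362-53377611 (minus strand) for Sptlc1, chr12:87388356-87388605 (minus) for Sptlc2, chr7:105554110-105554359 (plus) for Smpd1 and chr19:32103141-32103390 (minus) for Asah2.
Sptlc1: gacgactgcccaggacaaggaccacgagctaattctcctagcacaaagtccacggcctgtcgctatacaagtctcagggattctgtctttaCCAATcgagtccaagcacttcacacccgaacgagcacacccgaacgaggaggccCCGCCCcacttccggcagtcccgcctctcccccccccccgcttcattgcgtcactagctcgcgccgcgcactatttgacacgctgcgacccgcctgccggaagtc
Sptlc2: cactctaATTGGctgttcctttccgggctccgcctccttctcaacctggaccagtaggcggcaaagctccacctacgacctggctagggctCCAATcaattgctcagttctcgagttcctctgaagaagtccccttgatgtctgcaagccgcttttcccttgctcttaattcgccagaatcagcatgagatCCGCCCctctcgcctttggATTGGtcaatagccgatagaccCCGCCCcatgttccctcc
Smpd1: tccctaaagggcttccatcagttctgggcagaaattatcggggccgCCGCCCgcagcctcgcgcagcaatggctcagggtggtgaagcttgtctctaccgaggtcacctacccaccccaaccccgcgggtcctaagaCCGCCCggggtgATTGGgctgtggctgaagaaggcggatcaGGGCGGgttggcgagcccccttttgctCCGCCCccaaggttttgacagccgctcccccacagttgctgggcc
Asah2: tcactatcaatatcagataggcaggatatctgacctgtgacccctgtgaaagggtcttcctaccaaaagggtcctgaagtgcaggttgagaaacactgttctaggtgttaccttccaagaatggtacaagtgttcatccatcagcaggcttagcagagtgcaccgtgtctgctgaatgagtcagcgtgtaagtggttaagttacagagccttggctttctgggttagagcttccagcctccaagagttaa

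The Sptlc1 window held 1 GC box and 1 CCAAT box, the Sptlc2 window 2 and 3, and the Smpd1 window 4 and 1. None of the 4 motifs was found in the Asah2 window. Of 32851 such windows across the mouse genes, 32.7% held a GC box, 33.8% a CCAAT box, 6.02% an E-box and 0.785% the CLEAR core. The GC content was 61.6% for Sptlc1, 55.2% for Sptlc2, 64.8% for Smpd1 and 47.2% for Asah2, against a median of 52.4% over all windows. Over all 14 windows of 9 of the enzymes, an E-box was found in 1 window of Degs1 and in 2 overlapping windows of Sphk1, and the CLEAR core in none. Asah1 has no window here. These are matches of letters and say nothing of binding.

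The authors' deposited table also gives a p-value per array for the mouse against the pool, from an error model not given in the sources used here. In the authors' deposited table this p was under 0.05 on all 3 db/db arrays for 4 of the enzymes, Asah1, Asah2, Sphk1 and Sphk2. It was also under 0.05 on 2 of the 3 db/+ arrays for Sphk1, and on 0 db/+ arrays for the other 3, in the authors' deposited table. These values are those of the brighter Sphk1 probe. For the dimmer Sphk1 probe this p was under 0.05 on 1 of the 3 db/db arrays, in the authors' deposited table. Between 18.5% and 27.2% of all probes had such a p on a db/db array, and between 1.04% and 3.46% on a db/+ array. These shares are for single arrays. The share of all probes with such a p on all 3 db/db arrays was not computed, so the 4 enzymes have no matching background.

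The rest of the pathway was followed through 65 further genes in 5 groups, of which 48 were measured and the others were not analysed here. Of the 48, 5 rose in db/db eWAT, 0 fell and 43 did not pass, and 20 had an unadjusted p under 0.05 (limma), as did 23.2% of all genes. The share of all genes that rose was 2.92%. The median log2 fold change of the 48 was 0.15, against 0.00 over all genes. The number past the threshold was 7 with the epididymis covariate and 10 for db/db replicate 1 as the single db/db array. It was 0 without any one db/+ array, 2 and 3 without db/db mice 52 and 53, and 15 without mouse 51. Acer3, an alkaline ceramidase, had the largest change: log2 ratios of 1.74, 1.29 and 1.36 in the db/db mice stood against 0.04, 0.13 and 0.14 in the db/+ mice, without overlap. It rose by 1.36 ± 0.13 (SE, adjusted p = 0.017), and its second probe rose by 0.83 ± 0.14 (adjusted p = 0.0475). For Acer3 the value was 1.54 with the epididymis covariate (adjusted p = 0.0166) and 1.63 for db/db replicate 1 as the single db/db array (adjusted p = 0.00718). It was 1 of 3 measured genes in the group of other ceramidases and ceramide kinase.

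Glycosphingolipid genes held the other 4 rises among 20 measured, with a median of 0.36, 18 positive values and 11 with an unadjusted p under 0.05. Of all genes tested, 45.5% had a positive value. Neu1, a lysosomal sialidase, had log2 ratios of 0.26, 0.49 and 0.56 in the db/db mice and 0.00, -0.07 and -0.14 in the db/+ mice, without overlap. It rose by 0.51 ± 0.09 (SE, limma adjusted p = 0.0492), and Plekha8, a glycolipid transfer protein of the Golgi, by 0.32 ± 0.05 (adjusted p = 0.041). Plekha8 was dim, with Cy5 intensities of 0.12, 0.11 and 0.12 in the db/db mice and 0.10, 0.09 and 0.10 in the db/+ mice. The groups thus lay only a few rounding steps apart. B4galnt1, a synthase of complex gangliosides, rose by 1.30 ± 0.16 (adjusted p = 0.023), but its mean Cy5 intensity was only 0.05 in db/db and 0.0167 in db/+, a few rounding steps. With the epididymis covariate the log2 fold change was 0.39 for Neu1 (adjusted p = 0.0314), 0.32 for Plekha8, which no longer passed (0.078), and 1.12 for B4galnt1 (0.0313). With db/db replicate 1 as the single db/db array neither Neu1, at 0.33, nor Plekha8, at 0.31, passed, and the value of B4galnt1 was 1.00. All 3 db/+ ratios of B4galnt1 were 0.00 at rounded intensities, so that fit had no measured spread to test it against. Neu1 also missed the threshold when every probe was tested (adjusted p = 0.0551). The steps before ceramide had no call among 10 measured genes, 6 with an unadjusted p under 0.05, and a median of -0.23. The largest of these was Cers4, a ceramide synthase, at -0.83 ± 0.25 (adjusted p = 0.137), with log2 ratios of -0.25, -0.75 and -1.19 in the db/db mice and 0.06, 0.02 and 0.21 in the db/+ mice.

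Genes of sphingomyelin synthesis and breakdown also had no call among 7 measured, 1 with an unadjusted p under 0.05, and a median of -0.02. Sgms2, a sphingomyelin synthase, had the largest change, at 1.18 ± 0.51 (SE, limma adjusted p = 0.265), with log2 ratios of 0.09, 1.70 and 1.76 in db/db mice 51, 52 and 53 and 0.18, -0.28 and 0.13 in the db/+ mice. Mouse 51 lay within the db/+ range, and the high mice were the ones with the epididymis signal. For Sgms2 the value was 0.51 with the epididymis covariate (adjusted p = 0.341) and 0.09 for db/db replicate 1 as the single db/db array (adjusted p = 0.926). A second, dimmer Sgms2 probe gave 0.68 ± 0.19 and did not pass either (SE, limma on every probe, adjusted p = 0.121). Genes of S1P turnover, transport and its receptors had no call among 8 measured, 1 with an unadjusted p under 0.05, and a median of -0.05. Their largest change was S1pr4, an S1P receptor of lymphocytes and other blood cells, at -0.99 ± 0.22 (adjusted p = 0.0737), at a mean intensity of 0.0333 in db/db and 0.0667 in db/+. Without db/db mouse 51 the threshold was passed by Sgms2 at 1.72 (limma adjusted p = 0.0137), S1pr4 at -1.16 (0.0349) and Cers4 at -1.07 (0.0281), a setting that keeps only the db/db mice with the epididymis signal. With the epididymis covariate neither S1pr4, at -0.72 (0.0854), nor Cers4, at -0.50 (0.128), passed.

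**Figure D3:**
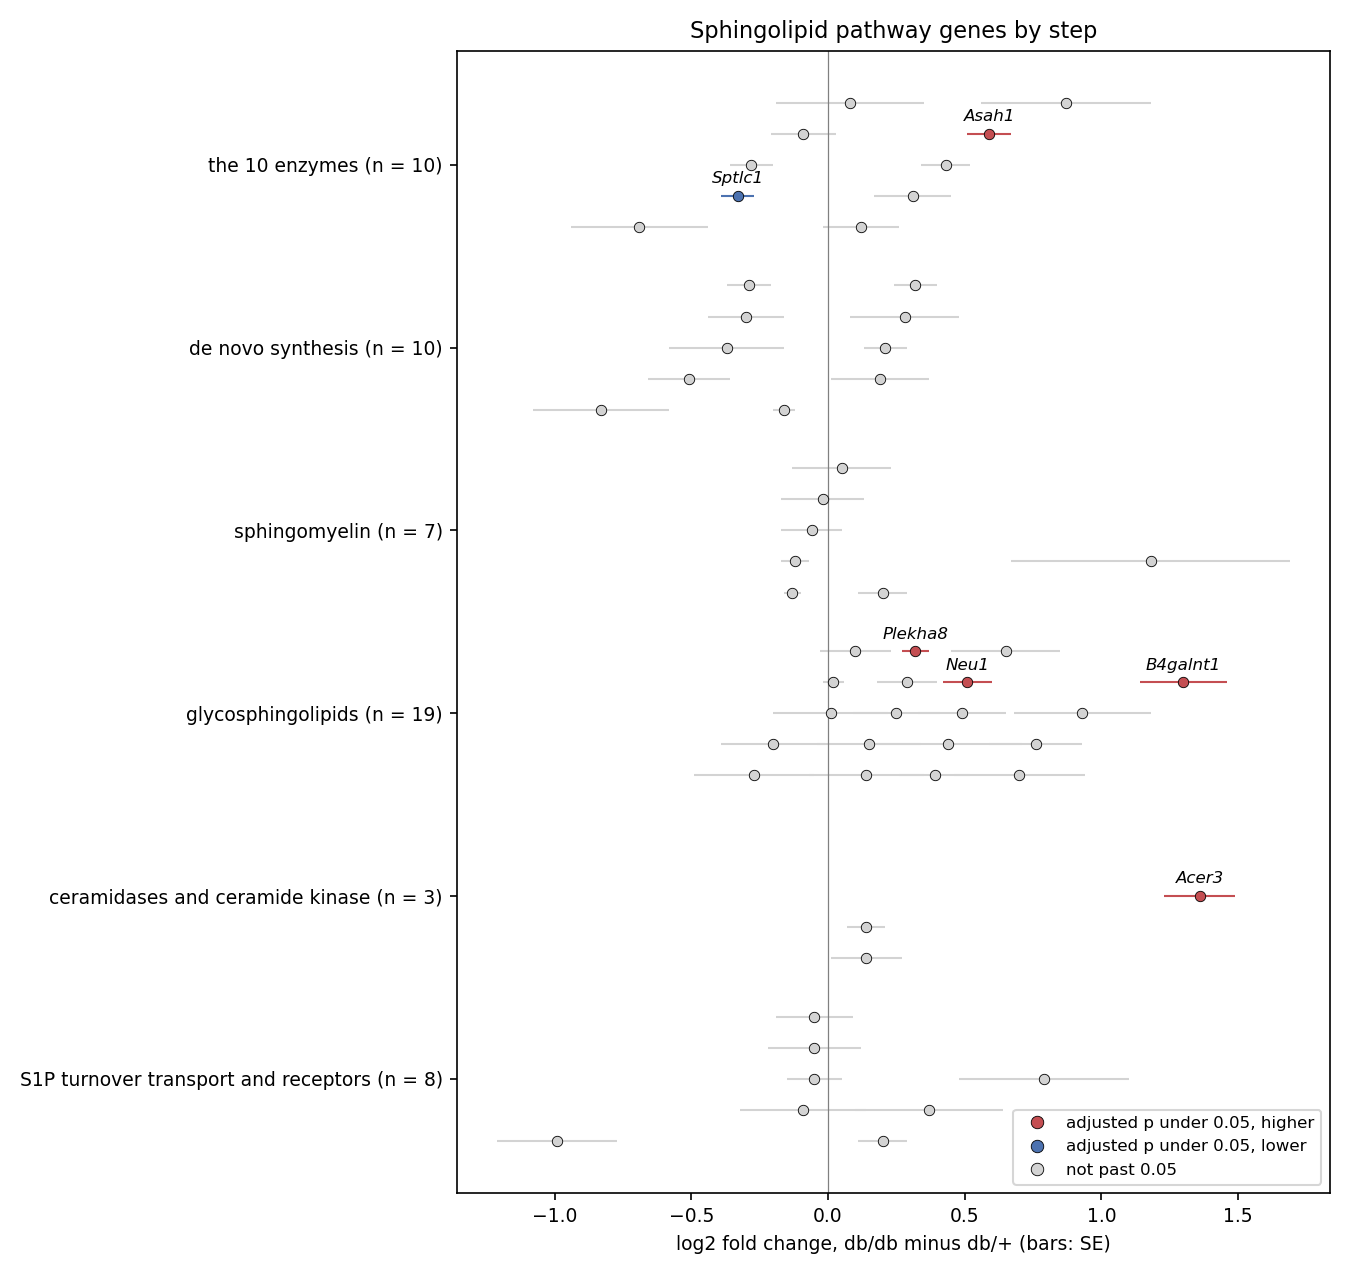
Log2 fold change (db/db minus db/+, bars show the SE) of the 10 enzymes and of 47 other measured pathway genes, grouped by step. Plotted genes past an adjusted p of 0.05 are named; they are Asah1 and Sptlc1 among the 10 enzymes, Plekha8, Neu1 and B4galnt1 among the glycosphingolipid genes, and Acer3.

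The lists of cell-type and organelle markers showed what else moved with these values. Lysosome markers had a median log2 ratio of 0.56, 0.24 and 0.17 in db/db mice 51, 52 and 53, against 0.00, 0.00 and -0.04 in the db/+ mice, and 5 of 22 passed as higher. Their summed Cy5 intensity was between 127 and 163 in the db/db mice and between 88.9 and 122 in the db/+ mice. The lowest sum, 88.9 in db/+ replicate 2, lacks the bright marker Ctsl, which had no value on that array. Ctsl read 29.7 and 28.6 in db/+ replicates 1 and 3, so the gap between the groups is overstated. Macrophage markers had 1.1, 0.44 and 0.37 in the db/db mice and -0.14, 0.21 and -0.03 in the db/+ mice, with 5 of 16 higher and a summed intensity of 45.9 to 99.7 in db/db and 30.1 to 42.2 in db/+. Asah1 and Neu1 are lysosomal enzymes. Asah1, like both lists, was highest in mouse 51, whereas Neu1 was lowest there, at 0.26 against 0.49 and 0.56 in mice 52 and 53. The part of these cells and organelles in either value was not tested. Smpd1, also lysosomal, had log2 ratios below 0 in all 3 db/db mice. No marker of either list was at or below an intensity of 0.05 on all db/db arrays.

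Adipocyte markers had a median log2 ratio of -0.78, -1.01 and -1.37 in the db/db mice and -0.06, 0.02 and -0.01 in the db/+ mice, with 5 of 12 lower and 1 higher. Sptlc1 followed the same order across the db/db mice, and the part of the adipocyte share in its value was not tested. Endothelial markers had -0.21, -0.52 and -0.94 in the db/db mice and -0.24, 0.15 and -0.06 in the db/+ mice. T and B cell markers were close to 0 on every array, between -0.10 and 0.00. They were dim, however, with a summed Cy5 intensity of 0.39 to 0.61 for the 8 measured. Of these, 2 were at or below 0.05 on all db/db arrays, so rounded ratios near 0 cannot show whether these cells changed. Fibroblast markers had 0.42, -0.55 and 0.14 in the db/db mice, and mesothelium markers -1.04, 0.09 and 0.21.

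**Figure D4:**
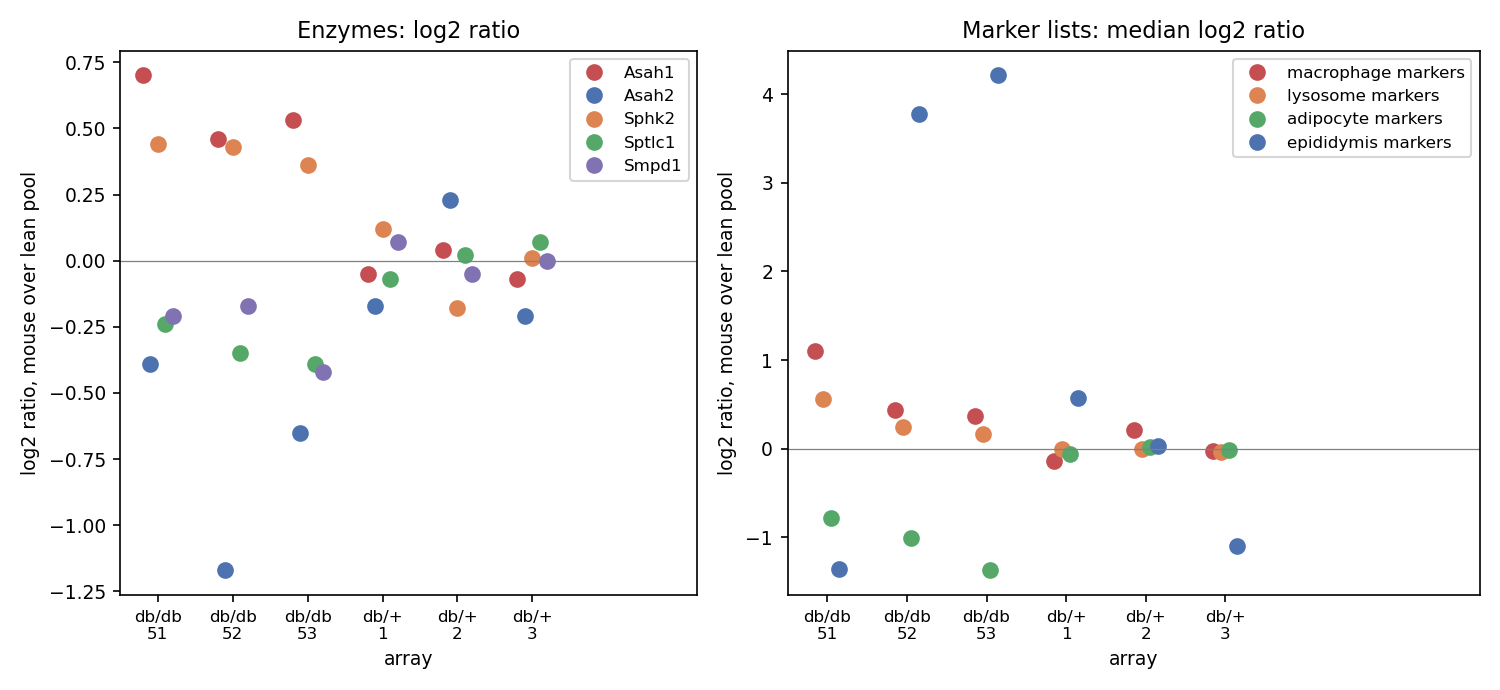
Left, log2 ratio of 5 of the enzymes on each array; right, median log2 ratio of 4 marker lists on the same arrays, with db/db left of db/+. The epididymis markers are high in db/db mice 52 and 53 (3.78 and 4.21) and low in mouse 51 (-1.36), while Asah1 is high in all 3 db/db mice.

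Across 22 alternative settings the log2 fold change of Asah1 kept its sign in all 22 and lay between 0.34 and 0.72, passing in 11. Sptlc1 kept its sign in all 22, between -0.38 and -0.17, and passed in 7. Sphk2 passed in 1, and Sptlc2, Smpd1, Asah2 and Sphk1 kept their sign in all 22 without passing in any. Degs1, Ugcg and Sgpl1 kept theirs in 18. The 22 settings are not independent. Each db/db array was left out under its mouse number and again under its replicate number, and the series matrix ratios nearly repeat the main fit. For a gene with 1 probe, as for Asah1 and Sptlc1, the mean of all probes nearly repeats it too. Such repeats are included in the counts. The array weights setting gave db/db mouse 51 a weight of 0.277, against 0.686 to 2.31 for the other arrays, so it partly repeats leaving that mouse out.

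**Figure D5:**
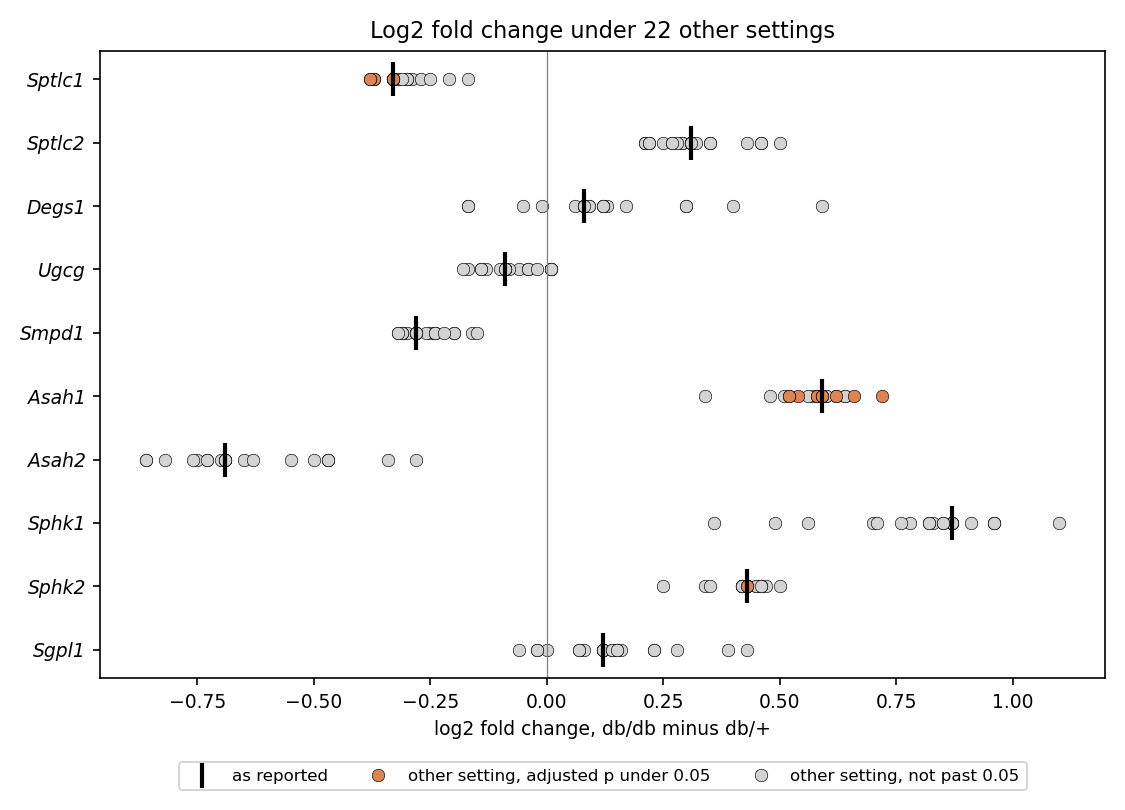
Log2 fold change of each enzyme as reported (black mark) and under 22 other settings (points, coloured where the adjusted p was under 0.05). Asah1 lies above 0 and Sptlc1 below 0 under every setting, while Degs1, Ugcg and Sgpl1 cross 0.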

How the data were processed

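RNA of 6 mice was profiled on 6 two-colour Agilent arrays, with 3 arrays per genotype; groups were taken from the sample titles. Agilent Feature Extraction 8.5.1.1 read the arrays, per the submitters' processing notes. The authors deposited a table with an intensity for each channel, the Cy3 pool intensity among them, and a p-value per array; their background correction, normalization and error model were not given in the sources used. The authors also deposited log10 ratios in a series matrix, which differed from the table by at most 0.00125 on the db/+ arrays. In the table the db/db arrays have mouse numbers, and values for numbered db/db replicates come from the series matrix.

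Ratios were log2 of Cy5 over Cy3, without further normalization, background correction or filter; the median of each array was 0.0. A RefSeq gene table was used to update symbols (17207 probes with a current symbol, 1790 renamed by synonym, 317 by accession, 7 named by accession alone, 2018 kept, 2217 unnamed), which gave 17086 genes. A gene was read from its brightest probe measured on all arrays, or else with at least 2 values per group. limma 3.58.1 in R 4.3.3 (lmFit, eBayes, db/db minus db/+, no block) was run on 17024 genes and on 23450 probes, with Benjamini-Hochberg adjustment over all of them at 0.05; the residual and prior degrees of freedom were 4 and 0.81, so p-values rest on the spread of 3 arrays per group. The fit was tested on simulated data. Permutation tests used scipy 1.17.1, tables numpy 2.4.6 and pandas 2.3.3, and figures matplotlib 3.10.9 in Python 3.11.15.

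The 10 enzymes, the pathway and marker lists and the tests were chosen with earlier results of these data known. The text names all 10 enzymes and, of other pathway genes, those that passed (except 1 that is not reported here, but is included in the counts) and the largest change of each group with none; marker lists are given as medians. Same-numbered arrays did not deviate together (correlations of -0.48, -0.41 and -0.02), so replicate numbers were not treated as pairs. Alternatives covered scaling, loess, the series matrix, Cy5 alone, an offset, a filter on dim probes, array weights, moderation, a replicate block, the epididymis signal, probe choice and each array left out.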

Additional observations from a re-analysis of the deposited data

How the results depend on the processing

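Counts of calls (limma, adjusted p under 0.05) are given in the order all genes, the 10 enzymes, other pathway genes, all probes and enzyme probes. In the main fit they were 1138, 2, 5, 1275 and 1 (3957 genes, or 23.2%, and 6 enzymes had an unadjusted p under 0.05). After quantile normalization of the ratios they were 0, 0, 0, 3 and 0 (2179 genes and 2 enzymes had an unadjusted p under 0.05), and with the same median absolute deviation on each array 2, 0, 0, 2 and 0 (1795 genes and 1 enzyme unadjusted). Both settings give the arrays the same spread, which was 0.53 to 0.68 on db/db and 0.23 to 0.28 on db/+ arrays (SD of log2 ratios). With the Cy5 channel alone they were 481, 0, 2, 498 and 0, and with db/db replicate 1 alone 1791, 1, 10, 2387 and 2, with a spread from the db/+ arrays alone. Array weights gave 2854 genes, 14 other pathway genes, 2874 probes and 2 enzyme probes. Loess within arrays gave 1 enzyme and 3 other pathway genes, an offset of 0.05 gave 2 enzyme probes, leaving out the dimmest 25% 3 enzyme probes, and the intensity trend with a robust prior and the epididymis covariate 1 enzyme each. The cause of these differences was not tested. With the replicate block, a paired fit, the counts were 0, 0, 0, 0 and 0 (3085 genes and 4 enzymes unadjusted); the numbers do not pair the samples. Leaving out 1 array at a time, the counts ranged from 54 to 3427 genes, 0 to 2 enzymes, 0 to 15 other pathway genes, 83 to 4054 probes and 0 to 4 enzyme probes. Asah1 and Sptlc1 stayed past the threshold without db/db replicate 1 (series matrix) and without db/db mouse 51 (table), and neither did without any other single array. Leaving out db/db mice by their numbers in the table was added after seeing the data. No enzyme that passed changed its sign under any of these settings. Rounding to 0.01 limits the dim probes of Degs1, Sphk1, Sgpl1 and Ugcg, and those of B4galnt1, Plekha8 and S1pr4 among the other pathway genes.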
